A study of Mus musculus with 5 samples.

Results

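The muscle miRNAs mmu-miR-1a-3p, mmu-miR-206-3p, mmu-miR-133a-3p and mmu-miR-133b-3p (mmu, mouse, is left out from here on) were followed in extracellular vesicles (EVs, membrane particles that cells release) from murine mesenchymal stem cells. They were taken by name as 4 of the 1966 mature miRNAs in the count table, of which 517 had a count in any library. The freeze-dried group held 3 libraries, from EVs in buffer with 25 mM trehalose that were frozen at -80 °C, dried overnight and rehydrated for 1 h. The not freeze-dried group held 2 libraries of EVs labelled as unmodified, for which the labels list DPBS with or without 25 mM trehalose and do not give the buffer or storage per library. All libraries came from cells of C57BL/6-GFP transgenic mice, which were grown with fetal bovine serum and then kept for 48 h in serum-reduced medium. Small EVs were pelleted from that medium at 100000 g. Nothing in the labels says whether replicates were separate cultures, so tests measure the spread between these libraries, which may be technical.

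miRNAs are short RNAs that pair with messenger RNAs through a seed near their 5′ end and repress them. miR-1 and miR-206 share a seed and favour differentiation of muscle precursors, whereas miR-133 is known to keep myoblasts dividing. miR-1 and miR-133a are made in heart and skeletal muscle from shared transcripts, and miR-206 and miR-133b, likewise a linked pair, mainly in skeletal muscle. In muscle their genes are switched on by myogenic factors such as MyoD and MEF2. Mesenchymal stem cells are stromal cells that give rise to bone, cartilage and fat cells.

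The sequences of the linked pair miR-206-3p and miR-133b-3p are shown because their counts differed most, beside those of the striated muscle miRNAs miR-499-5p and miR-208a-3p. Mature sequences came from RefSeq on GRCm38.p6, where miR-206-3p and miR-133b-3p of the 4 matched. In these lines the capitals mark the seed, bases 2 to 8.
miR-206-3p: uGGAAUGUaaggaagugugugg
miR-133b-3p: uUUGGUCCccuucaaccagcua
miR-499-5p: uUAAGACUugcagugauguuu
miR-208a-3p: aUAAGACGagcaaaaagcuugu
Mature miR-206-3p lies at chr1:20679055-20679076 and miR-133b-3p at chr1:20682834-20682855, both on the plus strand. The seed of miR-206-3p also occurred in 2 other listed miRNAs of the RefSeq table, miR-6349 and miR-6382, and neither had a count. miR-1a-3p, which shares the seed and had counts, was not matched in that table and so is not among them. miR-499-5p, made from an intron of the myosin gene Myh7b, shared 6 of 7 seed letters with miR-208a-3p, which lies in an intron of the cardiac myosin gene Myh6. The hairpin of miR-206, printed next with the mature 3p strand in capitals, shows where the counted strand lies in its precursor.
mir-206 hairpin: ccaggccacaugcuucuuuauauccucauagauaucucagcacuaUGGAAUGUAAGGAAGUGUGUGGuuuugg

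In GENCODE M21 (GRCm38) the hairpins fall into linked pairs. Mir206 (chr1:20679010-20679082) and Mir133b (chr1:20682769-20682887) lie 3686 bases apart in exons of the long noncoding RNA gene Gm28653. Mir1a-1 (chr2:180389048-180389124) and Mir133a-2 (chr2:180398379-180398482) lie 9254 bases apart on the plus strand, inside no other gene. Mir1a-2 and Mir133a-1 lie 2504 bases apart on chromosome 18, in introns of Mir133a-1hg and, on the opposite strand, of Mib1. A count of miR-1a-3p or miR-133a-3p therefore sums 2 gene copies, whereas miR-206-3p and miR-133b-3p have 1 each.

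Total counts ranged from 192450 to 2914305 in the freeze-dried libraries, against 912080 and 131507 in the not freeze-dried ones. Freeze-dried replicates 1 and 2 and not freeze-dried replicate 1, each above 500000 counts, are named deep here and the remaining pair shallow, a division made with the data known. Levels are given as CPM (counts scaled to a common library size) after normalization by the trimmed mean of M-values (TMM). Intervals of single libraries are exact 95% intervals and, like floors, cover counting error only, because PCR copies in the counts cannot be told from separate molecules. Reads of mature miRNAs are not divided by length (miR-206-3p and miR-133b-3p both have 22 bases), and capture during library making can differ between sequences. Given the labelled source, 10 mesenchymal miRNAs were looked up, such as miR-21a-5p and miR-143-3p. All 10 had counts and together took 15.6% to 18.1% of the counts in freeze-dried EVs, against 22.1% to 22.8% in not freeze-dried EVs. All members of the neuron, liver and endothelial lists below also had counts, so having counts does not test the source.

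miR-1a-3p, which promotes muscle differentiation, was the most abundant of the 4. It had 4918, 8040 and 514 counts in freeze-dried EVs, or 1790, 3123 and 2927 CPM, against 2129 and 253 counts in not freeze-dried EVs, or 2089 and 1939 CPM. Freeze-dried replicates 2 and 3 were the highest and freeze-dried replicate 1 the lowest of all, so the groups overlapped. Its rank by level was 65, 52 and 50 in freeze-dried EVs and 63 and 65 in not freeze-dried EVs, among 315 to 361 miRNAs detected per library. Over all libraries it stood between miR-181b-5p and miR-181a-5p in mean CPM. Vesicle samples are bulk samples, so fewer vesicles carrying a miRNA and fewer copies per vesicle cannot be told apart.

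miR-206-3p, the member most restricted to skeletal muscle, was the steadiest of the 3 that could be tested. It had 3958, 3353 and 258 counts in freeze-dried EVs, or 1440, 1303 and 1469 CPM. Not freeze-dried EVs had 1482 and 139 counts, or 1454 and 1066 CPM. The lowest library was the shallowest, not freeze-dried replicate 2, with an interval of 896 to 1258 CPM. The highest library exceeded the lowest 1.38-fold, against 1.75-fold for miR-1a-3p. The SD of its log2 CPM over the 5 libraries was 0.20, the place 9 from the lowest among the 89 tested miRNAs with at least 1000 CPM, whose median was 0.39. miR-1a-3p, at 0.36, took place 37.

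miR-133a-3p, the linked partner of miR-1a, was far lower, and its spread rested on 1 library. It stood at 182, 81.6 and 5.69 CPM in freeze-dried EVs, against 210 and 276 CPM in not freeze-dried EVs, from 960 counts in all. The shallow libraries held 1 count (freeze-dried replicate 3) and 36 counts (not freeze-dried replicate 2). All freeze-dried values lay below both not freeze-dried values. The closest pair was not separated by counting error: the interval of freeze-dried replicate 1 was 166 to 198 CPM and that of not freeze-dried replicate 1 was 183 to 240 CPM. In freeze-dried replicate 3 the single count compares with 16.3 to 52.7 counts that its depth would give at the shares of the other 4 libraries. In the same library miR-206-3p took 0.134% of the counts, against 0.106% to 0.162% in the others. The SD of log2 CPM of miR-133a-3p was 2.24, above the median of 1.14 for the 104 tested miRNAs with 100 to 1000 CPM. Without freeze-dried replicate 3 it was 0.75, below the median of 0.94 for the same miRNAs.

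miR-133b-3p, the linked partner of miR-206, was close to absent from the counts. It had 0 counts in each of the freeze-dried libraries and in not freeze-dried replicate 1, and 2 counts in not freeze-dried replicate 2. A floor of 3 counts, set here for a count of 0, stands at 1.09, 1.17 and 17.1 CPM in freeze-dried EVs and 2.94 CPM in not freeze-dried replicate 1. miR-133a and miR-133b are nearly identical in sequence, and how the authors assigned reads that match both is not given in the sources used here. The 2 miR-133b-3p counts are therefore uncertain, and the sum of both is the firmer measure of miR-133.

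The opposite arms and the other copies of these families were not detected. Each of miR-1a-1-5p, miR-1a-2-5p, miR-1b-3p, miR-1b-5p, miR-206-5p, miR-133a-5p, miR-133b-5p and miR-133c had 0 counts in all 5 libraries, 8 of 8. In the deepest library, freeze-dried replicate 1, the floor of 3 counts is 0.000103% of the counts, against 0.136% for miR-206-3p there. With 15854 counts of miR-1a-3p and 9190 of miR-206-3p in all, the reads of both hairpin families lay on the 3p strand.

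**Figure D1:**
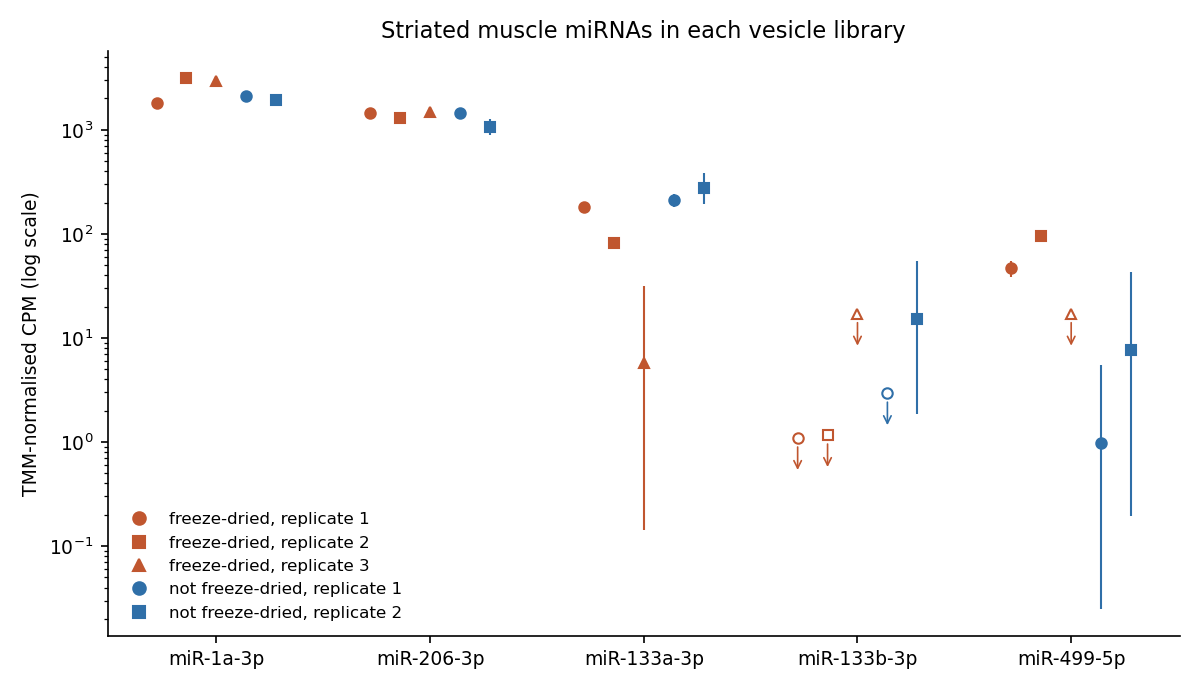
Points give the TMM-normalised CPM (log axis) of 5 striated muscle miRNAs in each library, with exact 95% counting intervals. Open symbols with an arrow mark a count of 0, drawn at the level of 3 counts. miR-1a-3p and miR-206-3p sit between 1066 and 3123 CPM in every library, whereas miR-133a-3p spans 5.69 to 276 CPM and miR-133b-3p has counts in 1 library.

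Ratios within a library do not depend on the normalization between libraries. In every library miR-1a and miR-206 together outnumbered miR-133a and miR-133b together. Their ratio was 17.8, 54.3 and 772 in freeze-dried EVs, against 16.9 and 10.3 in not freeze-dried EVs. The counting interval was 16.3 to 19.5 for freeze-dried replicate 1 and 14.7 to 19.5 for not freeze-dried replicate 1, so these nearest libraries were not separated. The value of 772 rests on 1 count of miR-133 and has an interval of 138 to 30531.

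All freeze-dried ratios lay above all not freeze-dried ones. On the log2 scale (counts + 0.5) the mean was 6.31 ± 2.47 (SD, n = 3) in freeze-dried EVs and 3.71 ± 0.51 (SD, n = 2) in not freeze-dried EVs, a difference of 2.59. The exact two-sided permutation test gave p = 0.20, the smallest that 3 libraries against 2 allow, and 0.80 after adjustment over the 6 ratios computed. Without freeze-dried replicate 3 the difference was 1.24. Among deep libraries it was 0.88 and between the shallow ones 5.66.

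The ratio of miR-1a-3p to its partner miR-133a-3p was 9.86, 38.3 and 514 in freeze-dried EVs and 9.95 and 7.03 in not freeze-dried EVs. Freeze-dried replicate 1 fell just below not freeze-dried replicate 1, so these groups overlapped (exact two-sided permutation p = 0.40, adjusted 0.80). Taking a floor of 3 counts per library, miR-206-3p counts exceeded miR-133b-3p counts at least 1319-fold, 1118-fold and 86.0-fold in freeze-dried EVs. In not freeze-dried replicate 1 they did so at least 494-fold. These bounds hold for the counts as assigned, and miR-133b reads assigned to miR-133a would lower them. In not freeze-dried replicate 2 the ratio was 69.5, with an interval of 18.9 to 580.

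The 2 seed-sharing miRNAs kept closer proportions. miR-1a-3p to miR-206-3p stood at 1.24, 2.40 and 1.99 in freeze-dried EVs and at 1.44 and 1.82 in not freeze-dried EVs. The highest and the lowest of the 5 were both freeze-dried libraries, and miR-1a-3p was the higher in each library. Their counting intervals, 2.30 to 2.50 and 1.19 to 1.30, were apart, so the spread between freeze-dried libraries exceeded counting error. The mean log2 ratio was 0.86 ± 0.49 (SD, n = 3) in freeze-dried EVs and 0.69 ± 0.24 (SD, n = 2) in not freeze-dried EVs. The difference of 0.16 gave p = 0.80 in the exact two-sided permutation test, adjusted 1.0. The ratio of both miR-1a and miR-133a to both miR-206 and miR-133b, that is of 1 kind of gene cluster to the other, was 1.37 to 2.46 in freeze-dried EVs and 1.58 and 2.05 in not freeze-dried EVs.

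**Figure D2:**
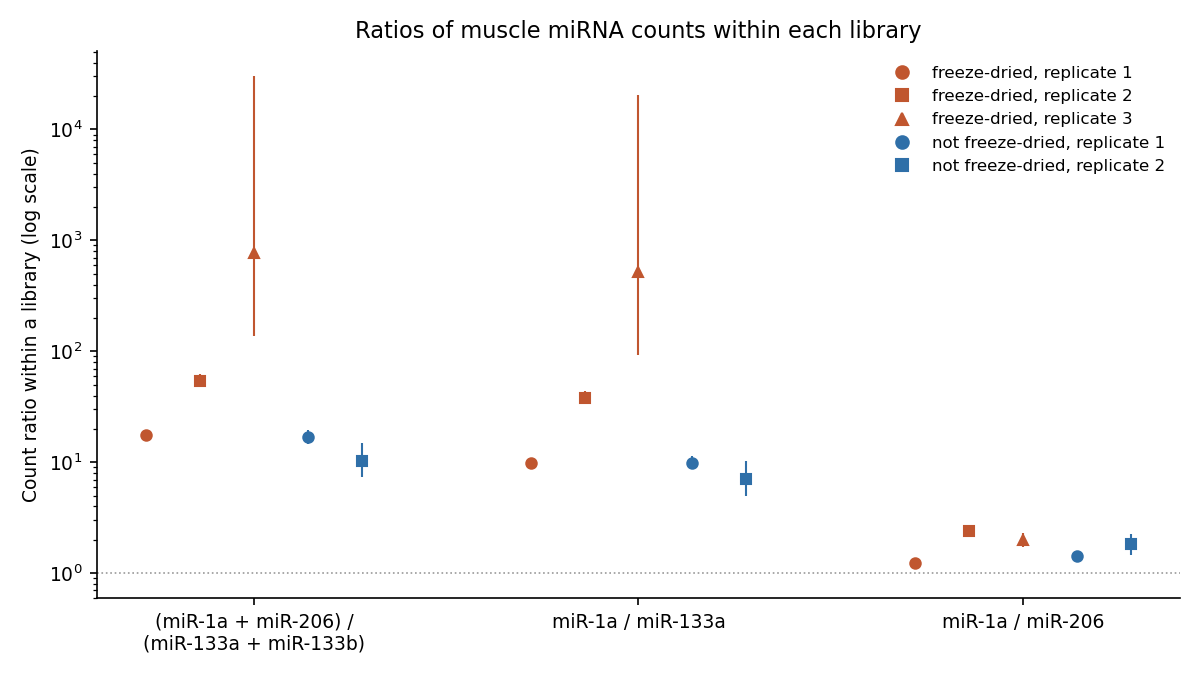
Points give the ratio of counts within each library (log axis) for 3 pairs, with 95% counting intervals. Ratios over miR-133 range from 7.03 to 772 and are widest in freeze-dried replicate 3, while miR-1a over miR-206 stays between 1.24 and 2.40.

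Unequal counts of linked miRNAs are common in this table. Beside the muscle pairs, 32 pairs of hairpins within 100000 bases of each other, chosen by name, had both members tested, and some share a member. Counts of some members, such as miR-16-5p and miR-24-3p, also sum gene copies outside the pair. Their ratios are therefore not between the linked hairpins alone. The more abundant one exceeded its partner by a median of 7.29-fold (geometric mean over the 5 libraries, counts + 0.5). miR-1a-3p over miR-133a-3p stood at 24.5-fold, with 8 of the 32 pairs above it, and the SD of its log2 ratio over libraries was 2.33, against a median of 0.62 and with 5 of 32 above it. Without freeze-dried replicate 3, where miR-133a-3p had 1 count, it stood at 12.7-fold with 10 of 32 above it, and its SD was 1.09, against a median of 0.58 and with 11 of 32 above it. The most unequal of the 32 was miR-224-5p over miR-452-5p at 630-fold, a value that rests on the added 0.5 because 3 of 5 libraries held a count of 0. Summed over libraries, miR-224-5p had 18827 counts for 39 of miR-452-5p, a ratio of 483. The most even was miR-182-5p over miR-183-5p at 1.13-fold. Over all libraries miR-206-3p had 9190 counts for 2 of miR-133b-3p, a ratio of 4595 with an interval of 1272 to 37948. That interval does not cover the unknown assignment of reads that match both miR-133a and miR-133b.

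**Figure D3:**
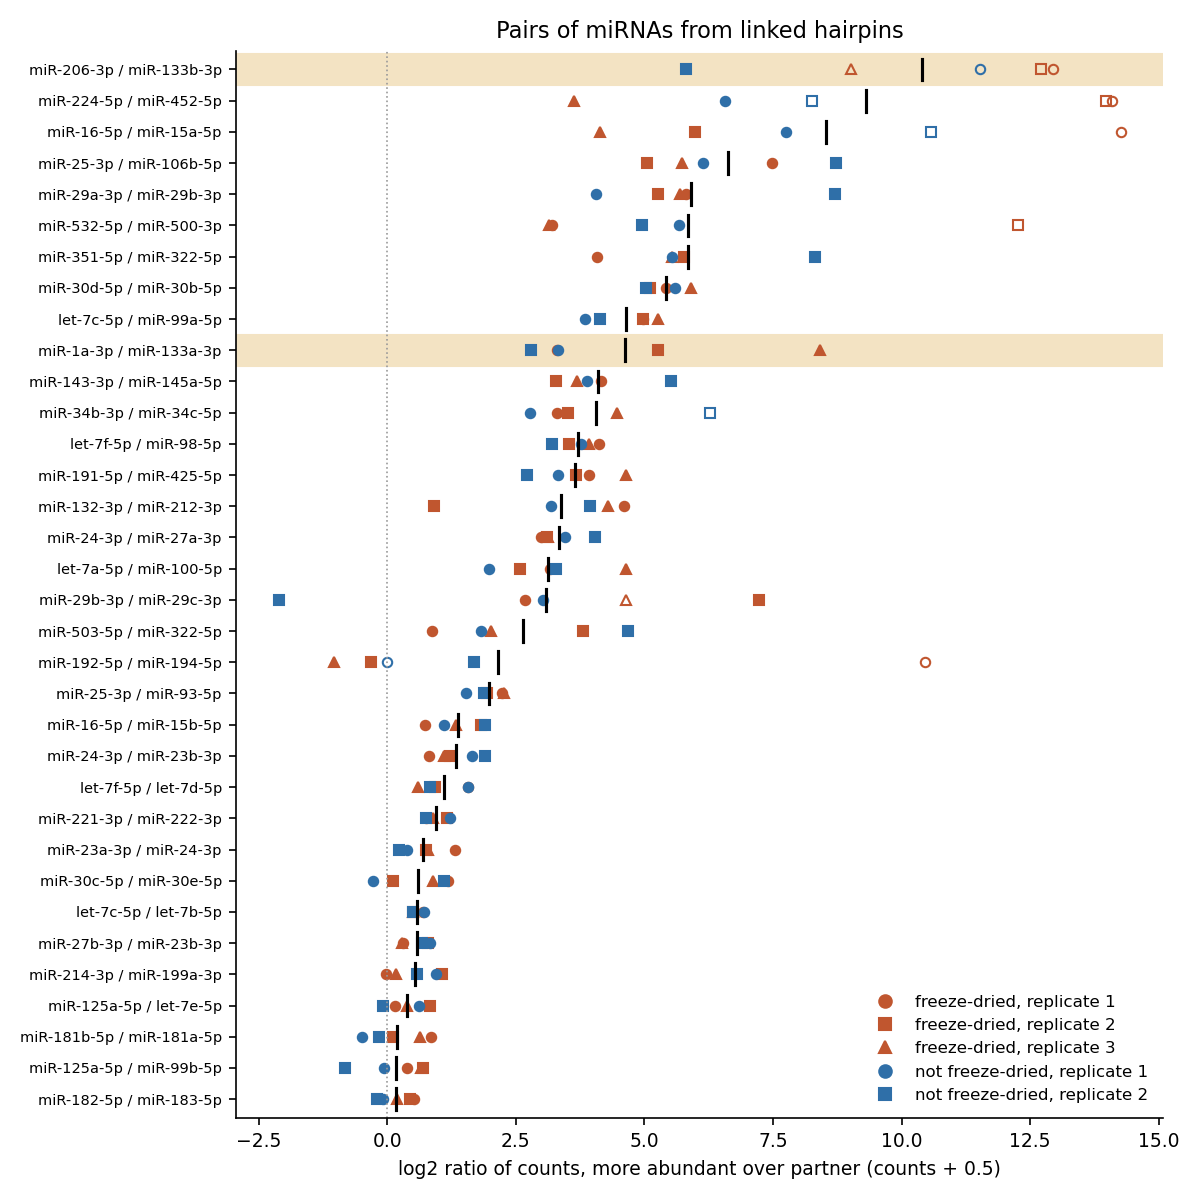
Each line is a pair of miRNAs from linked hairpins, with the log2 ratio of counts (counts + 0.5), more abundant over partner, in each of the 5 libraries and a bar at the mean. Open symbols mark a library in which either miRNA has 0 counts, and shading marks the muscle pairs. miR-206-3p over miR-133b-3p heads the list with 4 open symbols, and miR-1a-3p over miR-133a-3p runs from 2.80 to 8.42.

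Freeze-dried EVs were then compared with not freeze-dried EVs across all 327 miRNAs that passed the count filter, among them 3 of the 4 members. miR-1a-3p averaged 2613 ± 720 CPM (SD, n = 3) in freeze-dried EVs and 2014 ± 106 CPM (SD, n = 2) in not freeze-dried EVs. The fitted log2 fold change was 0.38 (SE 0.37, 95% interval -0.45 to 1.20, edgeR adjusted p = 0.98). miR-206-3p averaged 1404 ± 89.0 CPM (SD, n = 3) in freeze-dried EVs and 1260 ± 275 CPM (SD, n = 2) in not freeze-dried EVs. For it the log2 fold change was 0.15 (SE 0.39, 95% interval -0.72 to 1.03, edgeR adjusted p = 0.98), and its direction turned without not freeze-dried replicate 2 (-0.097). Neither passed the test, and the intervals run from 0.732-fold to 2.30-fold and from 0.609-fold to 2.04-fold.

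miR-133a-3p averaged 89.6 ± 88.2 CPM (SD, n = 3) in freeze-dried EVs and 243 ± 46.6 CPM (SD, n = 2) in not freeze-dried EVs. Its log2 fold change of -1.42 had an SE of 1.44 and an interval of -4.64 to 1.80 (edgeR adjusted p = 0.98), so it did not pass either. Leaving out freeze-dried replicate 3 gave -0.82, leaving out replicate 1 of the same group gave -2.41, and depth class as a term gave -2.66. edgeR called 0 of the 327 miRNAs higher (0%) and 0 lower (0%), with 9 at an unadjusted p under 0.05 (2.75%), none of them a member, while DESeq2 and limma-voom also called 0 and had 16 and 15. Groups did not overlap for 1 of the 3 tested members, miR-133a-3p, on the lower side. Over all 327 miRNAs 17.4% did not overlap, 8.56% on the lower side and 8.87% on the higher one.

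**Figure D4:**
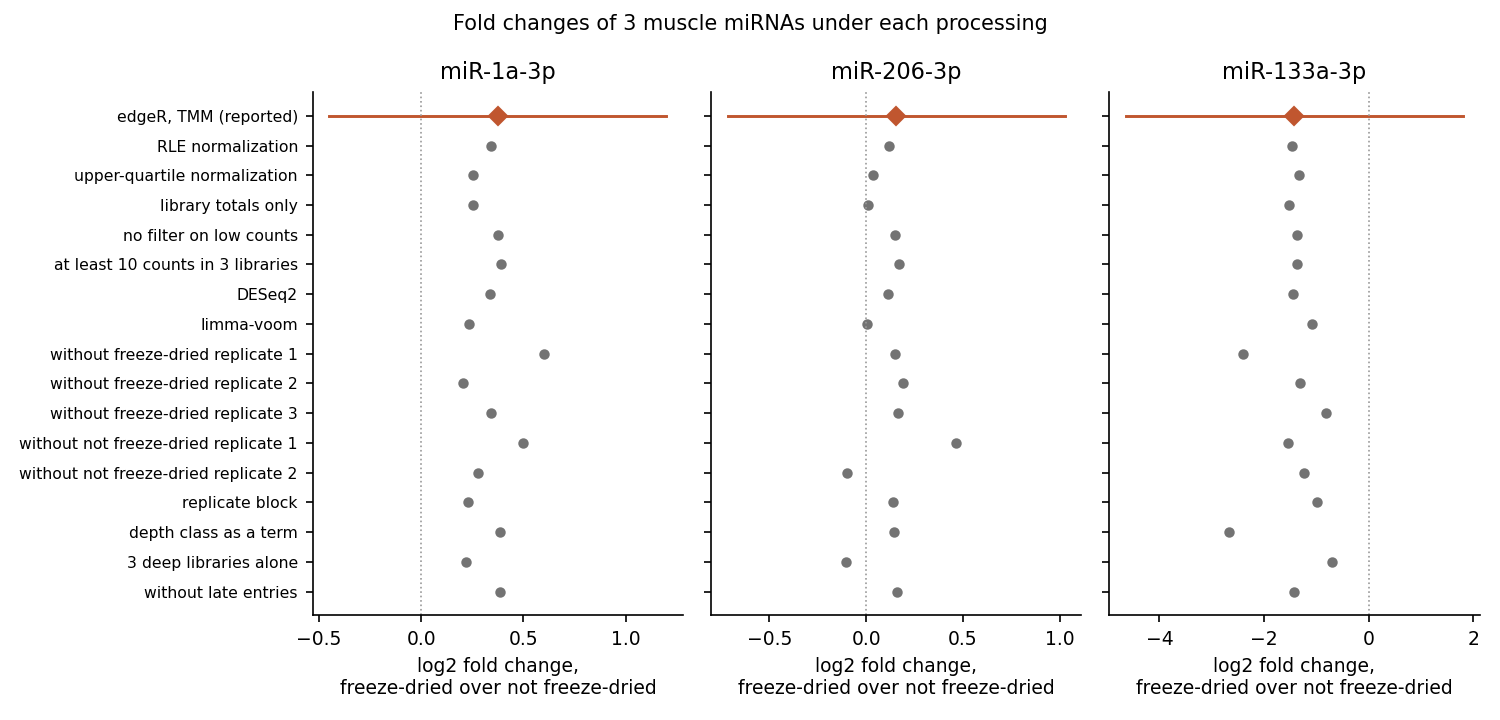
Points give the log2 fold change, freeze-dried over not freeze-dried, of 3 muscle miRNAs under each processing, with the reported fit as a diamond and its 95% interval as a line. The intervals of all 3 hold 0. Points of miR-1a-3p lie between 0.20 and 0.60 and those of miR-133a-3p between -2.66 and -0.70, while miR-206-3p has 2 points below 0.

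The miRNAs whose levels ran closest to each member over the 5 libraries were found by the SD of the log2 CPM difference. For miR-206-3p these were miR-191-5p (SD 0.063), miR-221-3p (0.19) and miR-30e-5p (0.19). For miR-1a-3p they were miR-5099 (SD 0.085), miR-423-5p (0.15) and miR-328-3p (0.16). miR-206-3p took place 18 for miR-1a-3p, at 0.38, and the SD of miR-1a-3p against its linked miR-133a-3p was 2.51, or 1.08 without freeze-dried replicate 3. For miR-133a-3p itself the closest were miR-28c (SD 0.91) and miR-466p-3p (1.01), followed by miR-503-3p (1.10). They averaged only 18.8, 12.5 and 93.1 CPM, while 3 counts stand at 17.1 and 23.0 CPM in the shallow libraries. These places are descriptions over 5 libraries and carry no test.

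Other striated muscle miRNAs were mostly undetected when miR-486 was left out. Of 6 rows, the arms of miR-208a, miR-208b and miR-499, only miR-499-5p had counts. miR-208a-3p, a heart miRNA, and miR-208b-3p had 0 in all 5 libraries. miR-486a-5p and miR-486b-5p, also made in striated muscle, were counted in the red cell list. They averaged 586 and 291 CPM over the 5 libraries. miR-499-5p, made with a slow-muscle myosin gene and found in heart and slow skeletal muscle, stood at 46.6, 94.4 and 0 CPM in freeze-dried EVs, against 0.981 and 7.67 CPM in not freeze-dried EVs, each of the last from 1 count. The 2 deep freeze-dried libraries were high and the shallow one was at 0, where 3 counts would be 17.1 CPM, so the groups overlapped. Its log2 fold change of 3.69 had an SE of 3.20 and an interval of -3.47 to 10.9 (edgeR adjusted p = 0.98). Omitting freeze-dried replicate 3 gave 4.40. When the fit lacked replicate 1 of the not freeze-dried EVs it was 2.68, and when it lacked their replicate 2 it was 5.48. With depth class as a term it was 2.25, and among deep libraries 6.07.

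Of 25 miRNAs that are regulated in or act on myoblast differentiation, 22 had counts and were tested. The fold change exceeded 1 for 11 of them and 0 were called in either direction. Their median on the log2 scale was -0.0037, against 0.015 for all 327, of which 51.1% exceeded 1. Their most abundant member, miR-125b-5p, averaged 40937 ± 7387 CPM in freeze-dried EVs (SD over 3 libraries) and 37965 ± 9687 CPM in not freeze-dried EVs (SD over 2). miR-221-3p averaged 15382 ± 920 CPM in freeze-dried EVs and 16187 ± 885 CPM in not freeze-dried EVs. The smooth muscle miRNAs miR-143 and miR-145a took 3.52% to 5.74% of the counts in freeze-dried EVs and 7.39% and 7.88% in not freeze-dried EVs. Of their 4 tested strands 3 had a fold change above 1 and 1 below, the last being the abundant miR-143-3p (log2 fold change -0.66, SE 0.26), and 0 were called.

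The 4 muscle miRNAs together took 0.322%, 0.469% and 0.402% of the counts in freeze-dried EVs, against 0.419% and 0.327% in not freeze-dried EVs. The means were 0.398% ± 0.074 (SD, n = 3) in freeze-dried EVs and 0.373% ± 0.065 (SD, n = 2) in not freeze-dried EVs, with the groups overlapping (exact two-sided permutation p = 1.0, adjusted 1.0 over 3 shares). miR-133a-3p plus miR-133b-3p made up 0.00871% ± 0.00830 (SD, n = 3) in freeze-dried EVs and 0.0262% ± 0.0038 (SD, n = 2) in not freeze-dried EVs, without overlap (p = 0.20 by the same exact test, the smallest possible, adjusted 0.60).

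miRNAs that mark other cell types were set beside these shares. The neuron list of 5 took 0.309% to 0.620% in freeze-dried EVs and 0.508% and 0.306% in not freeze-dried EVs, mostly from miR-129-5p and miR-128-3p. All 5 had counts, but miR-9-5p, miR-9-3p and miR-124-3p had 0 in some libraries. miR-124-3p had 31, 0 and 1 counts in freeze-dried EVs and 169 and 0 in not freeze-dried EVs. The red cell list had 4 of 5 with counts, mostly the near-identical miR-486a-5p and its copy miR-486b-5p, whose reads may be split between them, and took 0.0922% to 0.170% in freeze-dried EVs and 0.0758% and 0.120% in not freeze-dried EVs. The liver list, led by miR-192-5p and miR-122-5p, had 3 of 3 and took 0.0329% to 0.0442% in freeze-dried EVs and 0.0296% and 0.0806% in not freeze-dried EVs. In the deep not freeze-dried replicate 1, miR-192-5p and miR-194-5p had 0 counts, and miR-194-5p also had 0 in the deep freeze-dried replicate 1. The muscle share exceeded the red cell and liver shares in each library.

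The epithelial list had 5 of 8 with counts, led by miR-203-3p and miR-200a-3p, with miR-200c-3p, miR-141-3p and miR-429-3p at 0. It took 0.0203% to 0.0435% in freeze-dried EVs and 0.0753% and 0.0707% in not freeze-dried EVs. The leukocyte list had 2 of 4, miR-150-5p and miR-223-3p, with the defining miR-142a-3p and miR-142a-5p at 0 in all libraries, and took 0% to 0.00883% in freeze-dried EVs and 0.0278% and 0.0114% in not freeze-dried EVs. The endothelial list, miR-126a-3p and miR-126a-5p, had 2 of 2 and took 0.00623% to 0.0218% in freeze-dried EVs and 0.0403% and 0.0160% in not freeze-dried EVs. The epithelial, leukocyte, mesenchymal and smooth muscle shares were lower in every freeze-dried library than in both not freeze-dried ones, as the level of miR-133a-3p was. List members differed in direction. In the epithelial list miR-203-3p was lower, whereas miR-200a-3p, miR-200b-3p and miR-205-5p had counts only in freeze-dried libraries. In the mesenchymal list 6 of 10 fold changes were below 1 and 4 above. The mesenchymal and smooth muscle lists share miR-143-3p and miR-145a-5p, so their shares are not separate instances. Of all 327 miRNAs taken singly, 8.56% were lower without overlap, a rate that does not apply to sums over a list. The part of other cell types or of the serum used in culture in the levels of the muscle miRNAs was not tested.

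**Figure D5:**
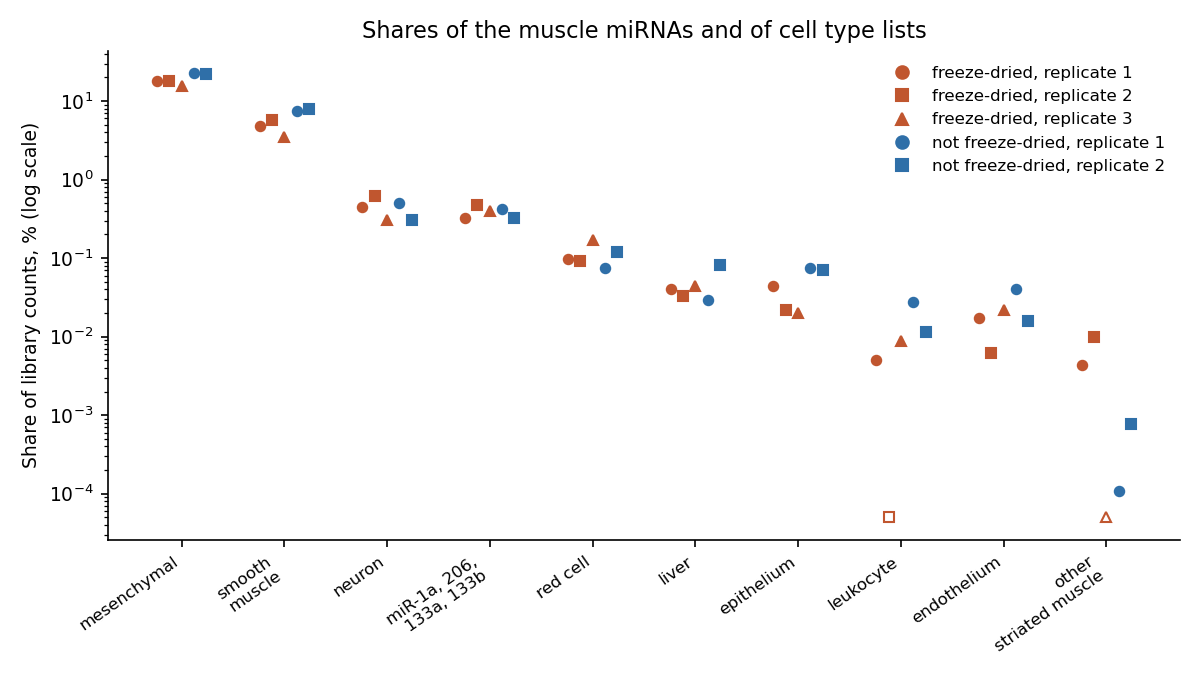
Points give the share of library counts in percent (log axis) of the 4 muscle miRNAs and of lists of miRNAs for other cell types, in each library. Open symbols at the bottom mark lists with 0 counts in a library. The muscle miRNAs take 0.322% to 0.469%, near the neuron list and below the mesenchymal list. The other striated muscle miRNAs, here miR-208a, miR-208b and miR-499 without miR-486, reach at most 0.00983%.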

How the data were processed

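Small RNA of vesicles was sequenced in 3 freeze-dried and 2 not freeze-dried libraries, grouped by the labels. The authors deposited raw read counts per mature miRNA, and the submitters' processing notes name cutadapt 2.3, Bowtie 1.1.2, featureCounts 1.5.0-p1 and GRCm38, with no role or order. Treatment of reads with several matches is not given in the sources used here. Total counts ranged from 131507 to 2914305 per library, and 0 rows named no miRNA. The members and lists were chosen with earlier results of these data known.

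The test was edgeR's robust quasi-likelihood fit (version 4.0.16, under R 4.3.3) after TMM scaling and filterByExpr, with Benjamini-Hochberg adjustment over the 327 tested miRNAs and a threshold of 0.05. DESeq2 1.42.0 and limma-voom (limma 3.58.1) were alternatives. The functions were tested on simulated counts. With 200 of 517 miRNAs changed there, edgeR called 3 changed and 0 unchanged miRNAs among the 288 tested. A lack of calls therefore does not show equal levels. Ratios of single libraries and of summed counts used raw counts, while log2 ratios and the means of linked pairs used counts + 0.5. Log2 ratios and shares were compared by exact two-sided permutation tests over libraries, whose smallest p is 0.20. Named were the members, other family rows with counts, the 2 most abundant of each list, the 3 closest miRNAs and the ends of the linked pairs. Other miRNAs named were chosen after their values were seen.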

Additional observations from a re-analysis of the deposited data

How the results depend on the processing

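With 3 libraries against 2, no permutation test could pass 0.05. Counts were low for miR-133b-3p in every library and for miR-133a-3p and miR-499-5p in the shallow ones. For miR-499-5p they were also low in the deep not freeze-dried replicate 1, with 1 count. The count of miRNAs called lower, 0, became 1 in the 3 deep libraries and 4 with the replicate block, none of them a muscle miRNA, while the count called higher stayed 0 under all 16 alternatives run. The numbers give only 2 pairs, whose deviations correlated at 0.14 and -0.10. A mean of 2 libraries, here 1 deep and 1 shallow, leaves mirrored deviations, so these correlations are not separate. They cannot decide whether libraries with the same number were paired, which the labels do not state. With the replicate block the difference of the log2 ratio of miR-1a and miR-206 to miR-133 was 1.24, against 2.59. That value equals the one without freeze-dried replicate 3, which has no partner in the block, so it is not a separate check. The log2 fold change of miR-133a-3p with the block was -0.98. The log2 fold change of miR-1a-3p stayed above 0 under all 16 alternatives (0.20 to 0.60) and that of miR-133a-3p below 0 (-2.66 to -0.70), while miR-206-3p turned to -0.11 in the deep libraries and ranged from -0.097 (without not freeze-dried replicate 2) to 0.46 when 1 library was left out.

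Without 1 library the difference of the log2 ratio ranged from 1.24 to 3.67 for miR-1a and miR-206 over miR-133, from 1.22 to 3.78 for miR-1a over miR-133a, and from 0.025 to 5.76 for miR-206 over miR-133b (1.19 after thinning, against 2.89). It ranged from -0.039 to 0.44 for miR-1a over miR-206 (-0.0058 without not freeze-dried replicate 1), from -0.12 to 0.30 for the 2 cluster kinds, and from -1.99 to 3.03 for miR-133a over miR-133b (-0.89 after thinning). Both ratios over miR-133b depend on the pseudocount, since 4 of 5 libraries held 0 counts of it. The difference in share ranged from -0.0219 to 0.0705 percentage points and was -0.0239 in the deep libraries. The mean log2 ratio over libraries, 5.27, stayed between 4.33 and 5.75. The cause of these changes was not tested.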
